A study of Danio rerio with 14 samples.

Results

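The genes described here encode partners of Mttp, the microsomal triglyceride transfer protein, in building lipoproteins. They are the 9 rows of the count table, of 36109 genes in all, whose symbol is pla2g12b, cideb, p4hb, tm6sf2, dgat2, soat2, creb3l3a, creb3l3b or a1cf. All 9 passed the low-count filter. RNA was sequenced from whole zebrafish embryos at 24 and 48 hours post fertilization (hpf). The mutants carried a CRISPR/Cas9 knockout of mttp (4 libraries at 24 hpf, 3 at 48 hpf). The controls were their siblings, labelled sib and untreated, with the same number of libraries at each stage. The labels give neither the allele nor the zygosity of the siblings, nor how many embryos went into a library, or whether replicates came from separate clutches. The p-values therefore cover only variation among these libraries, which may be technical. Each stage carries its own batch label, and so a stage change and a batch change cannot be told apart.

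A lipoprotein that carries triglyceride forms in the endoplasmic reticulum (ER). There Mttp, as a heterodimer with the disulfide isomerase P4hb, transfers lipid to apolipoprotein B while it is being made, and other ER proteins enlarge the particle. In the zebrafish embryo this work takes place chiefly in the yolk syncytial layer, the layer around the yolk that sends yolk lipid to the body, before the liver and the intestine take part. The partners fall into 3 roles: proteins that help to load lipid (pla2g12b, p4hb, cideb, tm6sf2), enzymes that make its lipid cargo (dgat2, soat2), and regulators of the pathway (creb3l3a, creb3l3b, a1cf).

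At 24 hpf 2 of the 9 partners passed the test: creb3l3a rose and soat2 fell in the mutants (1.5% of all genes were called higher and 2.33% lower). At 48 hpf 7 passed it: cideb, p4hb, dgat2, creb3l3a, creb3l3b and a1cf were higher in the mutants than in the siblings, and soat2 was again lower. For mutants against siblings, rose and fell here mean higher and lower than siblings of the same stage, not a change over time. Over all 24424 genes tested, 3.82% were called at 24 hpf and 6.06% at 48 hpf, and at 48 hpf 4.26% were called higher and 1.8% lower. The order of these shares depended on fitting all libraries together. With each stage fitted alone, 1359 genes were called at 24 hpf and 909 at 48 hpf, with 4 and 6 of the partners. The libraries of both genotypes did not overlap for 4 partners at 24 hpf and 8 at 48 hpf, beside 13.6% and 22.5% of all genes, and 6 of the 8 were all higher, beside 12% of genes. The median log2 fold change of the partners was 0.11 at 24 hpf and 0.72 at 48 hpf, beside -0.0028 and -0.0046 over all genes. Calls are edgeR quasi-likelihood tests with a Benjamini-Hochberg adjusted p under 0.05 over all genes, fold changes are log2 values of mutants against siblings ± SE, and levels are CPM by TMM-adjusted library sizes. Scaling by library size only moved the median of all genes at 24 hpf by 0.101 and the share of calls that were higher from 39.2% to 63.7%, but made the same calls among the partners there except that dgat2 was also called higher.

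**Figure D1:**
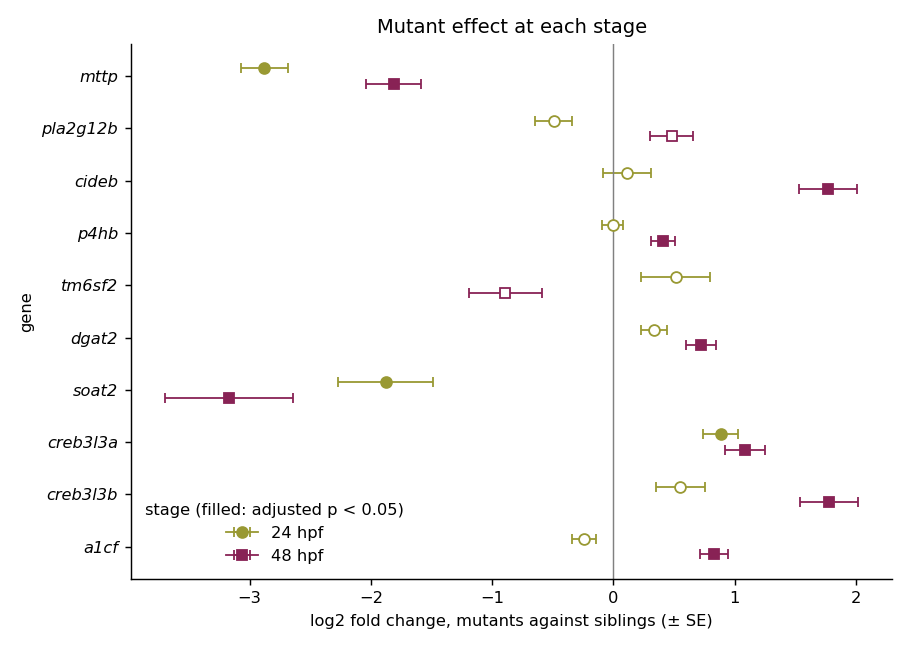
Log2 fold change of mutants against siblings (x axis, ± SE) for mttp and its 9 partners at 24 hpf (circles) and 48 hpf (squares), with filled symbols for an adjusted p under 0.05. Only creb3l3a, soat2 and mttp are filled at 24 hpf, whereas at 48 hpf pla2g12b and tm6sf2 are the only open symbols.

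Library totals ranged from 29422983 to 46534187 counts. Sibling replicate 3 at 48 hpf had the highest total, the lowest share of mitochondrial counts (0.696%) and the lowest log2 CPM correlations with the other replicates of its group (0.935 and 0.941), and sibling replicate 2 at 24 hpf also had a low mitochondrial share (0.847%; 1.27% to 1.97% in the other 12 libraries). Without these 2 libraries 3 partners were called at 24 hpf and 8 at 48 hpf, and the calls over all genes went from 934 to 1134 and from 1480 to 1858. RNA of mttp measured 71.2 ± 5.77 CPM (mean ± SD, n = 4) in siblings and 9.68 ± 1.51 in mutants at 24 hpf, and 29.4 ± 9.62 and 8.40 ± 2.703 (n = 3) at 48 hpf, with all mutant libraries below all siblings of their stage (log2 fold changes -2.88 ± 0.19 and -1.81 ± 0.23). In bulk RNA, fewer cells of a type and less RNA per cell cannot be told apart. Markers of the yolk syncytial layer, 18 genes tested, summed to between 4268 and 4896 CPM in siblings and between 2715 and 2967 in mutants at 24 hpf, and to between 2995 and 3549 and between 2217 and 2540 at 48 hpf, and none was without a count in any group. Of these 18 genes 1 rose and 7 fell at 24 hpf, while 7 rose and 3 fell at 48 hpf. The median log2 fold change of the list was -0.33 at 24 hpf and 0.36 at 48 hpf. A large part of the sums came from tfa, with means of 1944 CPM in siblings and 899 in mutants at 24 hpf. At 48 hpf its means were 926 and 220 CPM. The part of this layer's amount in the results was not tested.

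Among the loading proteins, pla2g12b encodes a secreted phospholipase relative without catalytic activity that is needed for lipoprotein lipidation in zebrafish and mouse. Its levels at 24 hpf were 427, 509, 457 and 410.2 CPM in the siblings and 289.9, 325, 339 and 327 CPM in the mutants. Every mutant library lay below every sibling library, as was the case for 8.59% of all genes in that direction. The log2 fold change of -0.49 ± 0.15 did not pass the test (adjusted p = 0.0926). DESeq2 called the gene lower (adjusted p = 0.0242), as did the fit with a replicate block (0.0358) and the fit of the 24 hpf libraries alone (0.00303). The range over all alternatives was 4.24e-04 to 0.252.

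At 48 hpf pla2g12b measured 194, 215 and 378 CPM in the siblings and 344, 389.7 and 365 CPM in the mutants. The high sibling value, that of replicate 3, overlapped the mutants, and the other siblings lay well below them. The log2 fold change was 0.48 ± 0.18 and was not called (adjusted p = 0.144; range 3.59e-05 to 0.354). With a replicate block it was 0.55 and called higher (adjusted p = 0.0358). Without sibling replicate 3 it was 0.84 and called higher (adjusted p = 1.03e-04), and without sibling replicate 1 it was 0.31 (adjusted p = 0.338). The mutant effect thus had opposite signs at the 2 stages. The difference between the effects, 48 minus 24 hpf, was 0.98 ± 0.24 and passed the test (adjusted p = 0.0303), as it did for 2.43% of all genes in that direction, 0.737% in the other and 3.17% in either. That call was lost without any of 11 single libraries (adjusted p up to 0.0810) and remained without sibling replicate 1 or 4 at 24 hpf or sibling replicate 3 at 48 hpf.

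The gene p4hb encodes protein disulfide isomerase, which keeps Mttp soluble as its partner subunit and also serves as the beta subunit of the collagen prolyl 4-hydroxylase. At 24 hpf it measured 354, 339.7, 374 and 324 CPM in siblings and 358, 313, 369 and 345 CPM in mutants. These groups overlapped over nearly their whole range, and the log2 fold change was -0.0068 ± 0.086 (adjusted p = 0.987), changing sign with library size only (0.096). At 48 hpf its levels were 213, 209 and 258 CPM in siblings and 318, 300.2 and 285 CPM in mutants, with no overlap. The mutants were higher by 0.41 ± 0.099 (adjusted p = 0.0185). This call was lost in the 48 hpf libraries alone (0.114) and without sibling replicate 1 (0.0669), sibling replicate 2 (0.0727) or mutant replicate 1 (0.0750), with a range from 0.00227 to 0.117.

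The product of cideb sits on lipid droplets and the ER and enlarges very low density lipoprotein in mouse liver. At 24 hpf the siblings had 8.93, 8.42, 8.07 and 5.47 CPM and the mutants 8.89, 8.05, 8.24 and 8.14 CPM. The groups overlapped and did not differ by the test (0.11 ± 0.20, adjusted p = 0.876). At 48 hpf the siblings had fallen to 1.28, 2.05 and 2.68 CPM, from 42, 63 and 117 counts, while the mutants had 6.93, 6.98 and 6.71 CPM. The mutants were higher by 1.77 ± 0.24 (adjusted p = 1.58e-04), a 3.40-fold difference that was called in every alternative run for that comparison (range 2.13e-10 to 0.0116). The difference between the stage effects was 1.66 ± 0.31 (adjusted p = 0.00591), also called in every alternative.

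The transmembrane protein Tm6sf2 of the ER and Golgi supports the lipidation of very low density lipoprotein in mouse liver. Its gene had 32 to 62 counts per library in siblings at 24 hpf, at 1.49, 1.83, 0.993 and 1.52 CPM, against 1.89, 1.81, 1.97 and 2.68 CPM in mutants. These overlapped (0.51 ± 0.28, adjusted p = 0.407). At 48 hpf the siblings had 7.93, 6.47 and 15.9 CPM and the mutants 5.45, 5.21 and 5.69 CPM. All mutants were below all siblings, as for 10.6% of genes in that direction, but the log2 fold change of -0.89 ± 0.30 was not called (adjusted p = 0.105; range 0.0451 to 0.516). Sibling replicate 3 carried much of the gap, and without it the value was -0.40 (adjusted p = 0.516). DESeq2 (0.0481) and the fit without sibling replicate 2 (0.0451) called it lower.

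**Figure D2:**
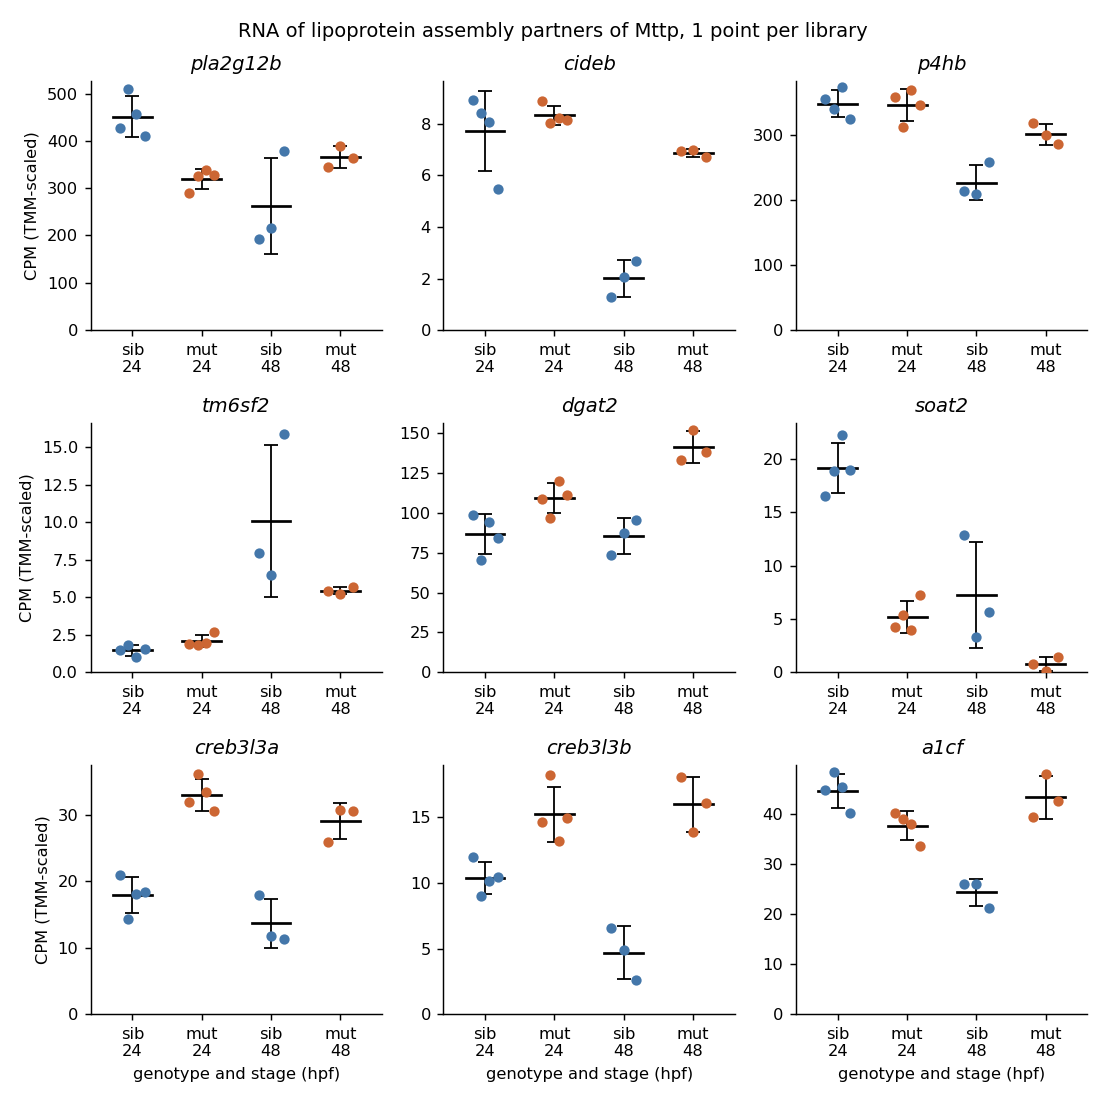
Level of each partner in CPM (y axis, from 0) by genotype and stage, with 1 point per library, a bar for the mean and whiskers for the SD (n = 4 per group at 24 hpf, n = 3 at 48 hpf). In siblings cideb falls to between 1.28 and 2.68 CPM at 48 hpf while the mutants stay between 6.71 and 6.98, and soat2 is lowest in the mutants at 48 hpf.

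Among the cargo enzymes, Dgat2 carries out the last step of triglyceride synthesis. In siblings dgat2 measured 98.4, 70.3, 94.2 and 84.1 CPM at 24 hpf, and in mutants 109, 96.8, 120.2 and 111 CPM. The ranges just overlapped, and the log2 fold change of 0.33 ± 0.11 was not called (adjusted p = 0.112; range 0.00562 to 0.319). However, DESeq2 (0.0423), library size only (0.0498) and the replicate block (0.0257) called it higher. At 48 hpf the siblings had 73.6, 87.6 and 95.6 CPM and the mutants 133, 152 and 138 CPM. The groups were apart, and dgat2 rose by 0.72 ± 0.13 (adjusted p = 0.00164). The call was made in every alternative (highest adjusted p 0.0130).

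The enzyme Soat2 esterifies cholesterol for lipoproteins in mammalian liver and intestine. RNA of soat2 at 24 hpf was 16.5, 18.8, 22.2 and 18.9 CPM in siblings and 4.27, 5.37, 3.94 and 7.26 CPM in mutants. The groups were far apart, and the log2 fold change was -1.88 ± 0.39 (adjusted p = 0.0128), a 3.68-fold fall. Without mutant replicate 1 (0.0533) or 3 (0.0556) the call was lost at similar sizes of effect. At 48 hpf the siblings spread from 12.8 CPM in replicate 1 through 5.64 in replicate 3 to 3.28 in replicate 2, and the mutants had 0.812, 0.139 and 1.47 CPM, from 28, 5 and 52 counts. The fall there was -3.17 ± 0.53 (adjusted p = 0.00113), called in every alternative, with values between -3.92 and -2.48. The difference between the effects of -1.29 ± 0.66 was not called (adjusted p = 0.364).

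Of the regulators, creb3l3a and creb3l3b encode transcription factors that are held in the ER membrane and released by cleavage. In mouse liver their counterpart switches on genes of fasting and of triglyceride clearance. At 24 hpf creb3l3a measured 20.9, 14.2, 18.1 and 18.4 CPM in siblings and 31.9, 36.1, 33.4 and 30.5 CPM in mutants, and at 48 hpf 17.9, 11.8 and 11.3 CPM in siblings and 25.9, 30.6 and 30.6 CPM in mutants. No mutant library overlapped a sibling library at either stage. It rose by 0.88 ± 0.14 at 24 hpf (adjusted p = 0.00144) and by 1.08 ± 0.17 at 48 hpf (adjusted p = 5.50e-04). It was called higher at both stages in every alternative, and the effects did not differ by the test between the stages (0.20 ± 0.22, adjusted p = 0.758).

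The paralog creb3l3b had 11.9, 9.02, 10.2 and 10.5 CPM in siblings and 14.6, 18.2, 13.2 and 14.9 CPM in mutants at 24 hpf. All mutants were above all siblings, as for 5% of genes in that direction, yet the log2 fold change of 0.55 ± 0.20 was not called (adjusted p = 0.164; 0.0246 in the libraries of that stage alone; range 0.0152 to 0.379). At 48 hpf the siblings had 6.59, 4.91 and 2.62 CPM and the mutants 18.1, 13.9 and 16.1 CPM. It rose by 1.78 ± 0.24 (adjusted p = 1.71e-04), called in every alternative. The difference between its effects was 1.22 ± 0.31 (adjusted p = 0.0431). That call was lost with RLE size factors (0.0549), library size only (0.0866) and a CPM filter (0.0542), and without any of 10 single libraries: the mutants and siblings of 24 hpf other than sibling replicate 2, and at 48 hpf sibling replicate 2 and mutant replicates 1 and 3. RefSeq lists creb3l3b also as a synonym of creb3l3a, and the count table keeps them as separate rows.

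The gene a1cf encodes an RNA-binding protein first known in mammals as the cofactor that guides editing of apolipoprotein B mRNA. At 24 hpf it measured 44.9, 48.4, 45.4 and 40.2 CPM in siblings and 40.2, 38.9, 38.0 and 33.6 CPM in mutants. The ranges touched, and the log2 fold change of -0.25 ± 0.099 was not called (adjusted p = 0.208; range 0.0643 to 0.560). At 48 hpf the siblings had 26.0, 26.0 and 21.3 CPM and the mutants 39.5, 48.0 and 42.5 CPM, well apart. It rose by 0.83 ± 0.11 (adjusted p = 1.84e-04), and the difference between the stage effects was 1.08 ± 0.15 (adjusted p = 6.01e-04); both calls were made in every alternative. In the RefSeq annotation a1cf overlaps rltgr, which went from 11.5 ± 1.53 CPM in siblings to 22.4 ± 4.81 in mutants at 48 hpf (0.97 ± 0.15, adjusted p = 6.95e-04). This overlap is between whole gene spans in a newer assembly than that of the counts, and shared exons were not looked up. The library kit does not mark the strand, so reads from any shared exon could not be told apart. Both values may be uncertain to that extent. The genes overlapping pla2g12b (oit3) and cideb (tinf2) were not called in either mutant contrast: oit3 stayed at or below 2.09 CPM in every library, and tinf2 changed by -0.023 ± 0.104 and 0.17 ± 0.12. The symbol tm6sf2 was not found in RefSeq, so genes overlapping it were not looked up.

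Read over development, 6 of the 9 partners fell from 24 to 48 hpf in siblings and 1 rose, beside 26.3% and 26.2% of all genes. In mutants 1 fell and 2 rose, beside 19.6% and 23.6% of all genes (called in either direction, 52.4% of genes in siblings and 43.2% in mutants). The change in siblings was -0.78 ± 0.17 for pla2g12b, -1.94 ± 0.22 for cideb, -0.62 ± 0.093 for p4hb, -1.15 ± 0.23 for creb3l3b and -0.87 ± 0.11 for a1cf, with adjusted p-values of at most 8.92e-04. In mutants these 5 genes changed by 0.19 ± 0.17, -0.28 ± 0.21, -0.20 ± 0.093, 0.070 ± 0.22 and 0.20 ± 0.11, and none was called (adjusted p-values from 0.0923 to 0.827). Such a fall in siblings without a call in mutants was found in 9.52% of all genes. The test of the difference between the genotypes is the same as that of the stage effects above. It was passed by pla2g12b, cideb, creb3l3b and a1cf, and missed by p4hb (0.42 ± 0.13, adjusted p = 0.103). DESeq2 called the difference for p4hb (adjusted p = 0.0467). So did edgeR without sibling replicate 3 at 48 hpf (0.0147) or without both libraries of low mitochondrial share (0.0197). With other single libraries left out its adjusted p was up to 0.224. With library size only, or without both sibling libraries of low mitochondrial share, p4hb was called lower over time in mutants too (0.0382 and 0.0274). That left 4 genes with a fall in siblings and no call in mutants. The same call was made without mutant replicate 2 of 24 hpf (0.0356).

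The other partners changed with stage in other ways. In siblings tm6sf2 rose by 2.79 ± 0.29 (adjusted p = 5.37e-07), and in mutants by 1.38 ± 0.29 (adjusted p = 8.46e-04), a difference of -1.40 ± 0.41 that was not called (adjusted p = 0.0783; 0.0217 by DESeq2 and 0.0444 without sibling replicate 2 at 48 hpf). RNA of soat2 fell in both genotypes, by 1.40 on the log2 scale in siblings (adjusted p = 0.0123) and by 2.69 in mutants (adjusted p = 4.05e-04). The call in siblings was lost without sibling replicate 2 at 48 hpf (0.0659) or without both libraries of low mitochondrial share (0.0609). In mutants dgat2 rose by 0.37 ± 0.12 (adjusted p = 0.0171; lost without mutant replicate 2 of 24 hpf, 0.0645, or of 48 hpf, 0.0546) and in siblings it measured -0.018 ± 0.12. The change of creb3l3a in siblings, -0.39 ± 0.16, missed the threshold (adjusted p = 0.0513; range 0.00226 to 0.229), and passed it with limma-voom (0.0446), without sibling replicate 2 of 24 hpf (0.0168) or without sibling replicate 1 of 48 hpf (0.00226).

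**Figure D3:**
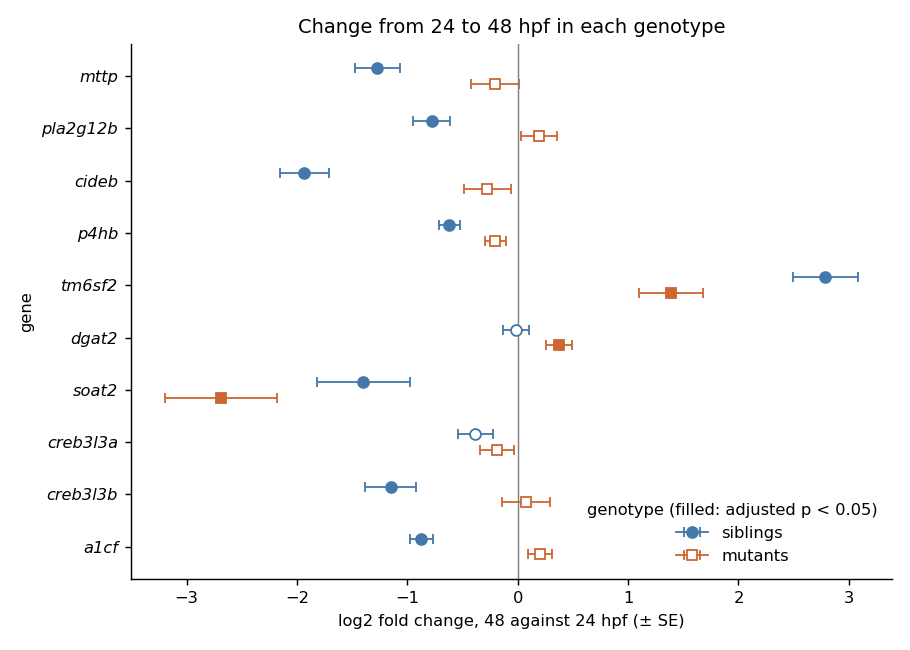
Log2 fold change from 24 to 48 hpf (x axis, ± SE) of mttp and its partners in siblings (circles) and mutants (squares), with filled symbols for an adjusted p under 0.05. For pla2g12b, cideb, p4hb, creb3l3b and a1cf the siblings are filled and below 0, from -1.94 to -0.62, and the mutants are open.

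Ordered by mean level, siblings at 48 hpf stood lowest for pla2g12b, creb3l3a, creb3l3b, cideb, dgat2, a1cf and p4hb. The share of all genes with this group lowest was not counted. For dgat2 the lowest mean, 85.6 CPM, was close to that of siblings at 24 hpf, 86.7 CPM. For a1cf, cideb and p4hb the libraries of siblings at 48 hpf lay apart from the next group, and the other neighbouring groups overlapped. For creb3l3b all groups were apart except the mutants of both stages. For creb3l3a the break lay between the siblings and the mutants, and within each genotype the stages overlapped. For pla2g12b the order was siblings at 48 hpf (262 ± 101 CPM), mutants at 24 hpf (320.1 ± 21.1), mutants at 48 hpf (366 ± 23.0) and siblings at 24 hpf (451 ± 43.5). Of its neighbouring groups only the first and the second overlapped. Sibling replicate 3 at 48 hpf, at 378 CPM, also lay within the range of the mutants at 48 hpf. For soat2 the order ran from mutants at 48 hpf (0.805 ± 0.664) through mutants at 24 hpf (5.21 ± 1.499) and siblings at 48 hpf (7.25 ± 4.98), which overlapped, to siblings at 24 hpf (19.1 ± 2.37). For dgat2 only the mutants at 48 hpf, the highest group, were apart from their neighbour. For tm6sf2 the groups of 24 hpf overlapped, and the mutants and then the siblings of 48 hpf lay apart above them.

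Genes of the same family or reaction are set beside the partners here, and no test compared a pair. The paralog soat1, which esterifies cholesterol in most mammalian cells, measured 7.69, 6.59, 7.42 and 5.84 CPM in siblings and 25.7, 24.3, 33.9 and 28.7 CPM in mutants at 24 hpf. It rose by 2.03 ± 0.15 (adjusted p = 2.78e-07), while soat2 fell. At 48 hpf soat1 measured 2.96, 2.08 and 2.78 CPM in siblings and 8.44, 9.09 and 11.1 CPM in mutants, a rise of 1.87 ± 0.18 (adjusted p = 6.37e-06). The paralog pla2g12a measured 21.9, 13.5, 15.1 and 12.9 CPM in siblings and 20.3, 25.7, 23.2 and 24.4 CPM in mutants at 24 hpf. Its log2 fold change of 0.56 ± 0.15 just missed the threshold (adjusted p = 0.0504; range 0.00266 to 0.161), was called in 9 of 18 alternatives, and had the sign opposite to that of pla2g12b. At 48 hpf it rose by 1.68 ± 0.18 (adjusted p = 1.57e-05), from 8.61 ± 0.299 to 27.7 ± 4.08 CPM.

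Neither dgat1a nor dgat1b, which carry out the same step as dgat2, was called in a mutant contrast by edgeR with all libraries. The first had values of -0.18 ± 0.60 and -1.28 ± 0.63 and the second of 0.26 ± 0.28 and 0.64 ± 0.31, at up to 10.7 CPM. At 48 hpf dgat1a was -0.38 without sibling replicate 3, which had 10.7 CPM beside 3.90 and 2.08 CPM in the other siblings, and at 24 hpf it changed sign without some single libraries. Without sibling replicate 1 at 48 hpf dgat1b was 1.097 and called higher (adjusted p = 0.0484). Of the third Creb3l3 gene, creb3l3l, the values were 0.26 ± 0.11 (adjusted p = 0.227) and 0.31 ± 0.12 (adjusted p = 0.172), and it rose from 24 to 48 hpf in siblings (1.09 ± 0.11) and mutants (1.14 ± 0.11). Its mutant libraries lay above all siblings at 24 hpf, as for 5% of genes, and overlapped them at 48 hpf. It was called higher at 24 hpf with the replicate block in the libraries of that stage only (adjusted p = 0.0411). At 48 hpf it was called higher without sibling replicate 3 (0.0408) or without both libraries of low mitochondrial share (0.0465). The droplet protein gene cidec had -1.18 ± 0.46 at 24 hpf and 1.16 ± 0.49 at 48 hpf, neither called by edgeR. At 48 hpf limma-voom called it higher (1.22, adjusted p = 0.0274), and the difference between its stage effects (2.34 ± 0.68, adjusted p = 0.0754) was called by DESeq2 (0.0144) and limma-voom (0.0455). Rows named pla2g12a, soat1, dgat1a, dgat1b and creb3l3l are separate genes, but reads shared between close relatives may have been assigned to either or to none.

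**Figure D4:**
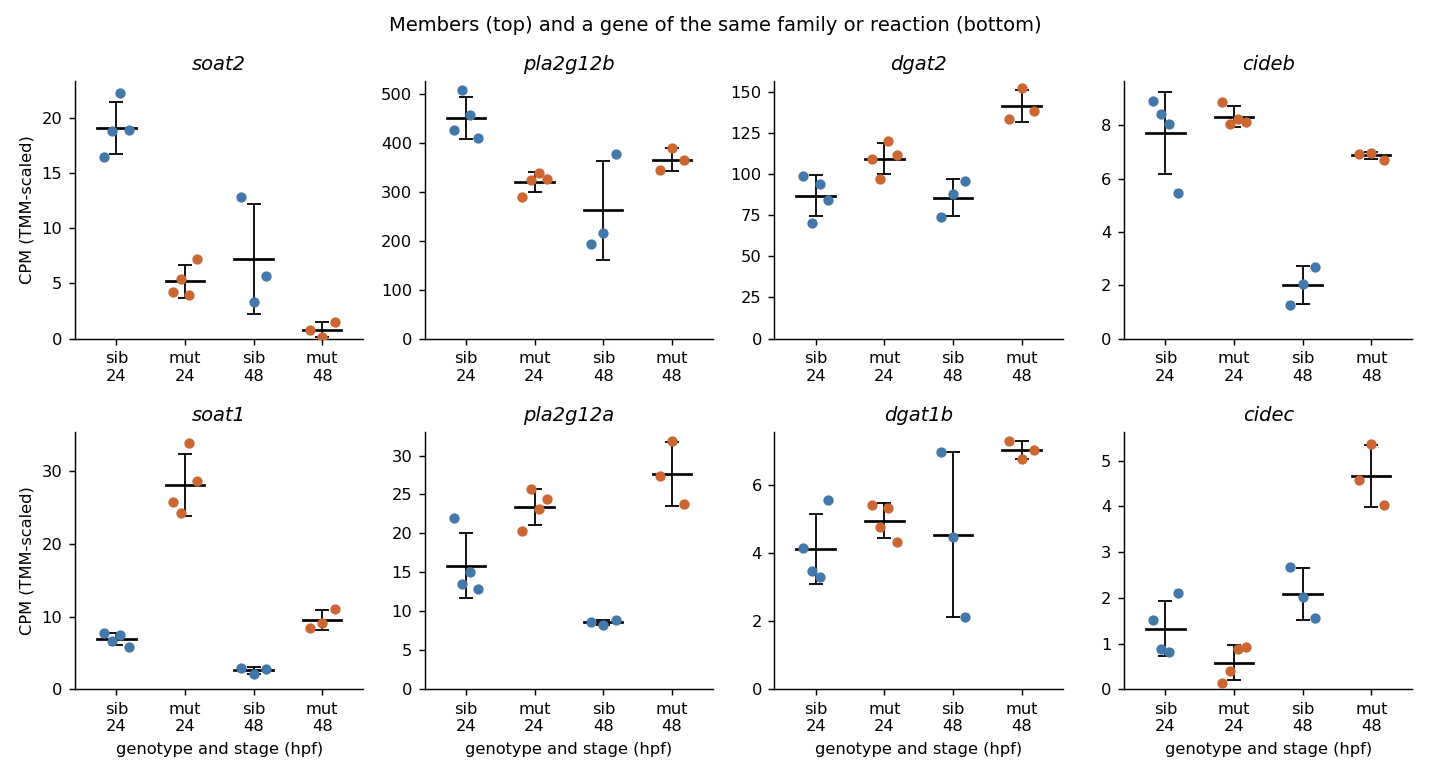
CPM by library (y axis, from 0) of soat2, pla2g12b, dgat2 and cideb (top) and of soat1, pla2g12a, dgat1b and cidec (bottom) by genotype and stage, with bars for the mean and whiskers for the SD. At 24 hpf the mutants lie below the siblings for soat2 and above them for soat1 (24.3 to 33.9 against 5.84 to 7.69 CPM).

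The 3 genes whose log2 CPM followed each partner most closely over the 14 libraries, among 14118 named genes, are given as a description, since all libraries share the stage difference and the mutant effect. For cideb they were tars, kdelr2b and vmp1 (Pearson r of 0.971, 0.970 and 0.962). For creb3l3b they were ptpn1, farsa and a row named NCEH1 (1 of many) (0.969, 0.965 and 0.958), and for creb3l3a syvn1, pxdc1b and osbpl5 (0.954, 0.940 and 0.940). For a1cf they were sec13, agpat9l and psmc1b (0.952, 0.939 and 0.929), for p4hb trim63a, lamp1a and gsr (0.962, 0.961 and 0.959), and for pla2g12b hm13, slc25a34 and hk2 (0.928, 0.927 and 0.926). For dgat2 they were stc2a, aacs and klf15 (0.918, 0.914 and 0.904), for soat2 serpina1, gamt and gltpd2 (0.934, 0.930 and 0.922), and for tm6sf2 trim3a, cyth3a and adamts5 (0.970, 0.970 and 0.969). No gene was named for more than 1 partner.

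Other genes of the pathway are given by list, with the partners left out. Of 14 apolipoprotein genes 5 fell at 24 hpf, led by apobb.2 (-1.66 ± 0.20), apoc2 (-1.17 ± 0.14) and apom (-0.80 ± 0.11). At 48 hpf 5 rose and 3 fell: apobb.2 fell further (-3.11 ± 0.23), whereas apoa4b.2 (2.47 ± 0.26), an apolipoprotein A-IV, and apoeb (0.80 ± 0.12), an apolipoprotein E, rose. The list's median was -0.32 at 24 hpf and 0.25 at 48 hpf. The list of neutral lipid synthesis also holds genes of other lipid steps, among them lpcat3, pcyt1aa, pcyt1ab, pemt and acat2. Of its 24 genes 4 rose and 5 fell at 24 hpf. The falls included those of acsl1b (-1.11 ± 0.11), which activates fatty acids, and lpin1 (-0.98 ± 0.19), which makes diacylglycerol. Without single libraries the genes that fell numbered 2 to 4 and those that rose 2 to 4. At 48 hpf 7 rose, or 4 to 7 without single libraries, among them soat1, acsl4a (1.34 ± 0.12) and acsl3b (0.89 ± 0.11), also activators of fatty acids. The median of that list was -0.061 at 24 hpf, or 0.043 with library size only, and 0.13 at 48 hpf.

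The list of ER exit and secretion covers the step at which finished particles leave in COPII vesicles. It also holds genes that are not part of the COPII coat, among them sort1a, sort1b, erlin1, erlin2, erlec1 and bcap31. Of its 27 genes edgeR called 0 at 24 hpf, where 7 had an unadjusted p under 0.05, DESeq2 called 1 and limma-voom 0. At 48 hpf 9 of them rose, or 6 to 10 when single libraries were left out. These included vmp1 (1.16 ± 0.087), an ER protein needed for lipoprotein release in zebrafish, from 32.7 ± 1.16 to 73.2 ± 2.81 CPM, and the outer coat genes sec13 (0.67 ± 0.090) and sec31a (0.73 ± 0.102). The median moved from 0.036 to 0.27.

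The list of disulfide isomerases also holds genes that are not isomerases, among them ero1a, ero1b, casq1a and casq2. Of its 22 genes 3 rose and 1 fell at 24 hpf, the fall being lost with library size only. The rises were those of pdia4 (1.91 ± 0.12), pdia6 (1.29 ± 0.16) and ero1b (0.60 ± 0.12), an oxidase that recharges the isomerases, at a stage at which p4hb did not change by the test. At 48 hpf pdia6 rose (0.75 ± 0.19) and casq1a, a calcium-binding protein of muscle that shares the thioredoxin fold, fell (-1.12 ± 0.28). The rise was lost without some single libraries, where the count went down to 0, and without sibling replicate 3 the list had 2 rises and no fall, the call of casq1a being lost, as it was without any single mutant library of that stage. Of 16 genes that hydroxylate or fold collagen, including the alpha subunits that pair with p4hb, edgeR called 0 at either stage. In that list 4 and 3 genes had an unadjusted p under 0.05 at 24 and 48 hpf, DESeq2 called 1 and 0, and limma-voom called 0 and 0.

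In the list of other Creb3 genes and of the machinery that handles such factors, hsp90b1, an ER chaperone, and atf6, a stress sensor released in the same way, were the 2 of 10 that rose at 24 hpf (2.73 ± 0.14 and 0.75 ± 0.14) and again at 48 hpf (0.84 ± 0.16 and 0.60 ± 0.16), where 1 to 3 rose without single libraries. Of 20 genes of fasting lipid metabolism, most of them targets of CREB3L3 in mouse, 2 rose and 3 fell at 24 hpf, and 7 rose and 2 fell at 48 hpf, with medians of 0.087 and 0.20. At 48 hpf lpl, the lipase of circulating lipoproteins, rose (1.57 ± 0.16), as did apoa4b.2, and sardh, a sarcosine dehydrogenase not known as such a target, fell (-2.77 ± 0.23). At 24 hpf fads2, a desaturase, rose (1.88 ± 0.26) and apoc2 and sardh (-2.83 ± 0.20) fell. Among 14 lipid droplet genes plin2, the main droplet coat, was the 1 that rose at 24 hpf (3.06 ± 0.27), and 4 rose at 48 hpf, with plin2 (2.44 ± 0.31), pnpla2 (1.47 ± 0.26), the droplet triglyceride lipase, and g0s2 (2.33 ± 0.42), its inhibitor, in front. Of 11 RNA-binding relatives and partners of a1cf, hnrnpaba fell at 24 hpf (-0.47 ± 0.12) and celf2 at 48 hpf (-0.26 ± 0.074), and both calls were lost with library size only. The call of celf2 was also lost without any of the 6 libraries of 48 hpf, and that of hnrnpaba without some.

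**Figure D5:**
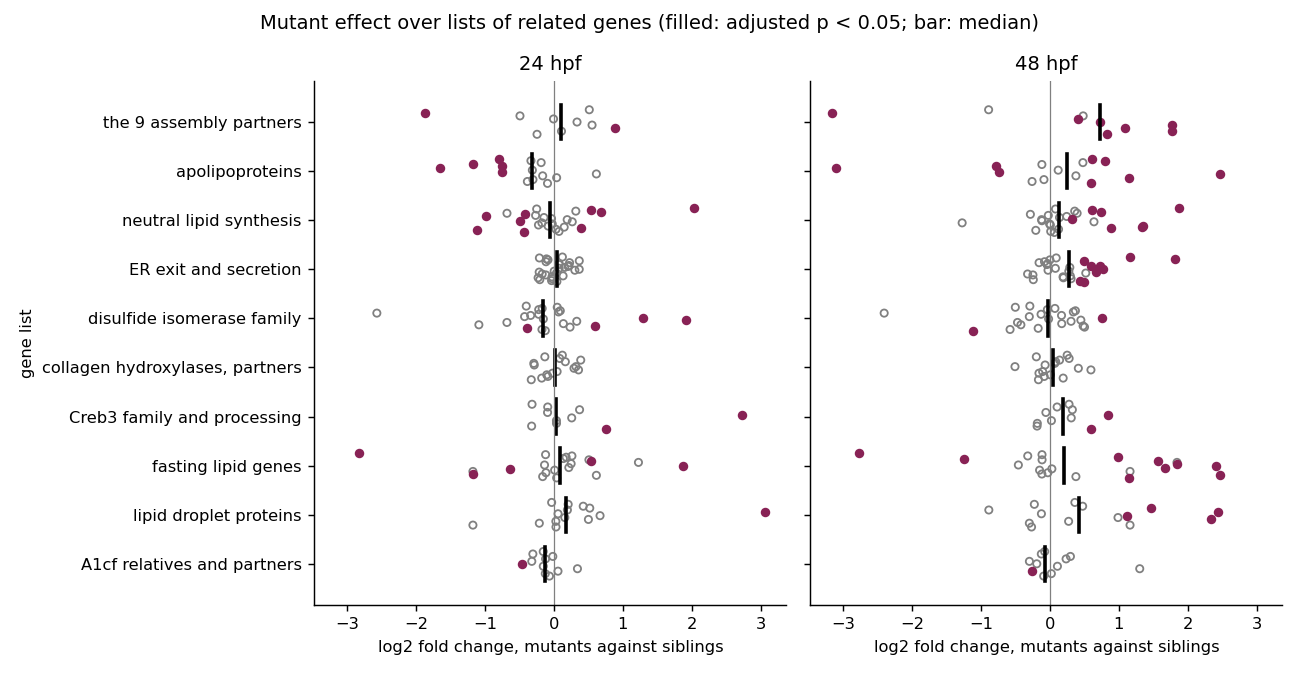
Log2 fold change of mutants against siblings (x axis) at 24 hpf (left) and 48 hpf (right) for the 9 partners and for each list of related genes, with 1 point per gene, filled for an adjusted p under 0.05, and a bar at the median. The median of the partners is 0.11 at 24 hpf and 0.72 at 48 hpf, and the lists hold genes on both sides of 0.

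Markers of tissues that make lipoproteins were also read by list. Each list is named for a tissue, but a change in it is not a change shown in that tissue. Which cells these RNAs came from, at 24 hpf in particular, was not tested. The median log2 fold changes at 24 and 48 hpf were -0.54 and 0.40 for liver markers and -0.37 and 0.52 for intestine markers. Those of the partners were 0.11 and 0.72. Of 14 liver markers 7 fell at 24 hpf (tfa -1.11 ± 0.14, c3a.1 -0.80 ± 0.12, serpinc1 -0.68 ± 0.13), and 5 rose and 3 fell at 48 hpf (tfa -2.08 ± 0.17, prox1a -0.85 ± 0.11, fgg 0.98 ± 0.13). Their summed level went from between 2808 and 3457 CPM in siblings to between 1538 and 1647 in mutants at 24 hpf, and from between 1976 and 2549 to between 2180.4 and 2899.5 at 48 hpf. Of 11 intestine markers 4 fell at 24 hpf (anxa2b -2.62 ± 0.42, fabp1b.1 -0.48 ± 0.11, cdh17 -0.37 ± 0.092), or 1 with library size only and 1 to 3 without single libraries, and 5 rose at 48 hpf (fabp2 0.86 ± 0.17, cdh17 0.45 ± 0.11, fabp1b.1 0.52 ± 0.13), or 1 without sibling replicate 3 and 1 to 4 over all single libraries. Their summed level was 673 to 754 CPM in siblings and 452 to 558 in mutants at 24 hpf, and 261 to 302 and 376 to 446 at 48 hpf. In the yolk syncytial layer list the genes of smallest p were tfa, serpina1l (-1.20 ± 0.16) and rbp4 (-1.50 ± 0.23) at 24 hpf, and tfa, serpina1l (-2.14 ± 0.18) and gata6 (1.05 ± 0.12) at 48 hpf. At 48 hpf 7 of the 18 genes of that list rose and 3 fell. The lists share genes: tfa is also in the liver list, and fabp2 and fabp1b.1 are also in the intestine list. The mean level of tfa, which enters the sums of both its lists, was 1944 CPM in siblings and 899 in mutants at 24 hpf. At 48 hpf it was 926 and 220 CPM. Every marker in these lists had counts in each group. Muscle, neural, blood and hatching gland markers, 18 genes that show the libraries to be whole embryos, summed to between 26652 and 33111 CPM at 24 hpf and between 45634 and 62677 at 48 hpf. At 24 hpf edgeR called 0 of them (1 at an unadjusted p under 0.05; DESeq2 and limma-voom 0), and at 48 hpf he1.1, a hatching enzyme, rose (0.56 ± 0.084) and neurod1 (-0.58 ± 0.13) and gfap (-0.54 ± 0.15) fell, the count of falls being 0 to 3 without single libraries. Their part in the partners' values was not tested.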

How the data were processed

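TRIzol-extracted total RNA was made into libraries with a NEBNext Ultra RNA kit, per the labels' protocols. The authors deposited raw counts of reads, 1 row per gene and 1 column per library, without normalization. Per the submitters' processing notes, featureCounts 2.0.6, STAR 2.7.10b, FastQC 0.12.1 and Trim Galore 0.6.10 were used with the build GRCz11. The annotation, strand mode and handling of multi-mapping reads were not given in the sources used here. Of 36109 genes in the table, 4130 were at 0 in every library.

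From these counts, filterByExpr (minimum count 10) kept 24424 genes. All 14 libraries were fitted together as 4 groups in edgeR 4.0.16 (R 4.3.3; limma 3.58.1) with TMM factors and quasi-likelihood tests, with 10 residual degrees of freedom. The SE of a log2 fold change comes from the weights and the moderated dispersion of that fit. Replicates differed beyond counting noise (chi-square per gene of at least 9.26 in every pair), so none was counted as a duplicate. The fit was tested on simulated data.

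The 9 genes, the 13 lists and the rule for naming genes were chosen with earlier results of these data known. The rule named the partners, mttp, their paralogs, up to 3 called genes per list and mutant contrast (smallest p), and the 3 most correlated genes of each partner with an average log2 CPM of at least 1. Overlapping genes were added after their values were seen. The lists named 240 symbols, 7 of them found by a RefSeq synonym and 20 not found. RefSeq names (assembly GRCz12tu) served for names and overlaps only. Alternatives were DESeq2 1.42.0, limma-voom, RLE factors, library size only, other filters, single-stage fits, a replicate block and leaving out libraries. Leaving out both libraries of low mitochondrial share was chosen after seeing the data.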

Additional observations from a re-analysis of the deposited data

Results flagged for a closer look

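The mutant effect differed between the stages, by the test of the difference itself, for 4 of the 9 partners, beside 3.17% of all genes (2.43% in the same direction). Without single libraries 2 to 5 partners passed, and the calls of pla2g12b and creb3l3b were lost without any of 11 and 10 single libraries, respectively. The difference, 48 minus 24 hpf, was 0.98 for pla2g12b, 1.22 for creb3l3b, 1.66 for cideb and 1.08 for a1cf on the log2 scale. All 3 mutant libraries at 48 hpf lay above all siblings for creb3l3b, cideb and a1cf, and for pla2g12b sibling replicate 3 overlapped them. In the 18 groups of 4 libraries (9 genes at 24 hpf) no library stood apart from its group by Dixon's criterion, which chance passes in about 1 of 20 groups. Groups of 3 were not tested.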

How the results depend on the processing

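Among the partners' calls per comparison, 2 at 24 hpf became 4 with DESeq2, with the replicate block and in the libraries of the stage only, and 5 with both of the latter. For 48 against 24 hpf in mutants, 3 became 5 without both libraries of low mitochondrial share. Both of those are sibling libraries, so the mutant libraries compared were the same and only what is shared in the fit differed. Leaving out single libraries gave 1 to 2 of 2 at 24 hpf, 6 to 8 of 7 at 48 hpf, 2 to 5 of 4 for the difference, 6 to 8 of 7 in siblings and 2 to 3 of 3 in mutants. Over all genes the 934 calls at 24 hpf became 1621 with DESeq2 and 1359 in the libraries of the stage only. They became 2580 with the replicate block in the libraries of the stage only, and 524 to 818 without single libraries. The 1480 at 48 hpf became 909 in the libraries of the stage only and 946 to 1446 without single libraries. The 774 for the difference became 1374 with DESeq2, 1187 with the replicate block, 1319 without both libraries of low mitochondrial share and 472 to 1428 without single libraries; 76.7% of them were higher, or 66.7% with library size only. For 48 against 24 hpf, the 12807 calls in siblings became 11805 to 13051 and the 10552 in mutants 8930 to 9800 without single libraries.

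Values near 0 changed sign. For p4hb at 24 hpf these were 0.096 (library size only), 0.016 (no low-count filter), 0.018 (CPM filter), 0.011 (libraries of the stage only) and 0.0096 (with the replicate block), and -0.040 to 0.057 without single libraries. For dgat2 in siblings they were 0.0088 (RLE), 0.016 (library size only), 0.014 (no low-count filter), 0.025 (CPM filter) and 0.0089 (DESeq2), and -0.107 to 0.080 without single libraries. Without single libraries cideb at 24 hpf spanned -0.025 to 0.186, and in mutants over time creb3l3b spanned -0.0061 to 0.196 and mttp -0.46 to 0.0060. The cause was not tested.

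Same-numbered siblings and mutants correlated in their deviations at 0.0677 to 0.306 at 24 hpf and 0.0874 to 0.273 at 48 hpf. Every library correlated best with its own number. Not all values were above 0.1, the criterion for pairing, and the main fit was unpaired. Calls that change with the replicate block are uncertain for that reason. With the replicate block pla2g12b was also called lower at 24 hpf (0.0358) and higher at 48 hpf (0.0358), and dgat2 higher at 24 hpf (0.0257). In the libraries of the stage only, with the replicate block, creb3l3b was also called at 24 hpf (0.0152) and p4hb was no longer called at 48 hpf (0.117). Low counts limit the precision for soat2 in mutants at 48 hpf (5 to 52 counts) and for tm6sf2 at 24 hpf (32 to 82 counts).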
